A study of Mus musculus with 6 samples.

Results

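The annexins are a family of proteins that bind phospholipid membranes in the presence of calcium, through a conserved core of repeats, while a variable N-terminal tail binds partners such as small S100 proteins. They take part in the repair of torn plasma membranes, in vesicle traffic and in inflammation. Anxa10 is expressed mainly by the gastric epithelium and is used as a marker of gastric differentiation. RNA of 10 annexin genes (Anxa1 to Anxa8, Anxa10 and Anxa11) was followed here in a mouse gastric adenocarcinoma cell line and in its paclitaxel-resistant derivative. The 10 genes were found by name among the 21959 genes of the count table, which held 12 annexin genes in all. The other two, Anxa9 and Anxa13, are given for comparison. The set was chosen by measured values, because Anxa10 RNA is lost in the resistant line, so that the differences of the 10 genes between the lines are a description and carry no p-value.

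The parental line is named MPC in the sample labels and MTC in the study, and the resistant line MPC-PTX and MTC-R, respectively. Both lines carry the genotype CDH1-/-;Trp53-/-. According to the study's methods, they go back to gastric organoids of a mouse with floxed Trp53 and Cdh1 and the tamoxifen-inducible Mist1-CreER, grown as subcutaneous tumours in nude mice, and each line was selected as a clone. MPC served as the control. MPC-PTX had been through more than 30 cycles of paclitaxel (PTX), a drug that stabilises microtubules, and no sensitive clone treated alike was compared, so that resistance, drug exposure and the choice of the clone cannot be told apart.

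Each line was measured in 3 RNA-seq libraries, with 16574580 to 23148182 counts per library. The labels do not say whether the libraries of a line came from separate cultures, so that p-values measure the spread between these libraries, which may be technical. The MPC libraries differed more among themselves than the MPC-PTX libraries did. The SD of the log2 ratio between a pair of libraries was 0.335 to 0.52 in MPC and 0.219 to 0.24 in MPC-PTX. The targeted genes gave RNA in both lines. Trp53 had 98, 63 and 120 counts in MPC and 142, 130 and 111 in MPC-PTX, and Cdh1 had 2561, 2555 and 2812 against 3068, 3018 and 2217. Counts over a whole gene cannot show whether the floxed exons were removed. All 8 epithelial markers examined passed the test described below as lower in MPC-PTX, beside 15.6% of all tested genes. Nothing is read from this count. Their summed level was 9560 to 11000 CPM (counts scaled to the size of each library) in MPC and 5760 to 5950 CPM in MPC-PTX. The part of these markers in the differences of the annexins was not tested. The summed markers of other cell types were low in both lines, at 8.63 to 10.9 CPM for fibroblasts, 9.8 to 12.8 CPM for leukocytes and 2.34 to 3.13 CPM for endothelium. In bulk RNA, fewer cells of a type and less RNA per cell cannot be told apart.

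Promoter sequences of 8 of the 10 annexins were matched in RefSeq (GRCm38.p6), each as the 250 bases before the annotated start. The 3 shown are Anxa10, whose RNA was lost, Anxa2, the only other matched annexin with a hit to the AP-1 motif, and Anxa5, the annexin with the next lowest ratio between the lines. All bases from the first one that GENCODE M21 places in an exon were left out, which removed 63 bases from Anxa2 and 7 from Anxa5. Capitals mark the AP-1 motif TGANTCA and the TATA box TATAAA. The windows are chr8:62123194-62123443 on the minus strand for Anxa10, chr9:69453433-69453619 on the plus strand for Anxa2, and chr3:36475895-36476137 on the minus strand for Anxa5.
Anxa10: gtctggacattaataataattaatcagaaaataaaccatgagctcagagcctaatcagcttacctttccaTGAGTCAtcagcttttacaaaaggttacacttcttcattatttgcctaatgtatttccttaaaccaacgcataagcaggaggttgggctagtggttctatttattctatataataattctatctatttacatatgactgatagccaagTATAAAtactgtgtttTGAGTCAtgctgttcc
Anxa2: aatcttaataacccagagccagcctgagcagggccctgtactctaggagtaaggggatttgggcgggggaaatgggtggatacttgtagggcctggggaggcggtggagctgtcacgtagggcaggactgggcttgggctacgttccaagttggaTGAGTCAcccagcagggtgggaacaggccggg
Anxa5: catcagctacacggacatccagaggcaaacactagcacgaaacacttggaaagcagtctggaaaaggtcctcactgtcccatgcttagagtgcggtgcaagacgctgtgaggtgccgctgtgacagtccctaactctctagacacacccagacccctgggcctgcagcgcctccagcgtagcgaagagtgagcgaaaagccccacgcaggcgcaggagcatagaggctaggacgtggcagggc

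The Anxa10 window was poor in G and C. Its 250 bases held 33.6% GC and 1 CpG, against a median of 52.4% GC and 6 CpG over all 32851 windows of this length, of which 18.8% had at most 1 CpG. The whole Anxa2 window held 62.4% GC and 9 CpG, and the Anxa5 window 58.8% GC and 13 CpG. Motifs were searched on both strands, and none of the matches in the windows shown overlapped another. The AP-1 motif was matched at -180 and -16 from the Anxa10 start and at -95 from the Anxa2 start. Distances count from the RefSeq start, which for Anxa10 lies upstream of the gene as GENCODE M21 places it (62057042 to 62123150). At least 1 match was present in 6.75% of all windows, and at least 2 matches in 0.338%. TATAAA was matched at -32 in Anxa10. It was also matched at -32 in Anxa1 and at -17 in Anxa2, whereas 12.4% of all windows held it. The matches in Anxa1 and Anxa2 lay downstream of the first base of the window that GENCODE M21 places in an exon. GGGCGG (32.7% of all windows) was matched 3 times each in Anxa2 and Anxa11, and also in the overlapping windows of both Anxa7 starts, which share 1 of their sites, and not in Anxa10. The other motifs searched were CCAAT (33.8%), AGATAA (9.99%), CACGTG (6.02%) and TGTTTAC (3.17%), and none of these had a match in Anxa10. A match is a run of letters and not a measured binding site.

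Anxa10 RNA was nearly absent from the resistant line. Anxa10 (ENSMUSG00000031635; chr 8, 62057042 to 62123150, minus strand) had 1681, 2912 and 3059 counts in the MPC libraries and 10, 4 and 6 counts in the MPC-PTX libraries. Scaled to library size, this was 89.3, 150.1 and 147 CPM in MPC and 0.427, 0.180 and 0.356 CPM in MPC-PTX. Every MPC-PTX library was far below every MPC library, and MPC replicate 1 was the lowest of its line. Summed over libraries, 7652 counts of 59845545 in MPC stood against 20 counts of 61630084 in MPC-PTX. The level per total count was therefore 394-fold higher in MPC, with an exact 95% interval of 255 to 645 that covers counting error only. The fitted log2 fold change (MPC-PTX minus MPC) was -8.62 with a standard error (SE) of 0.35, and 2 of the 11795 tested genes had a lower one. Leaving out any 1 library gave -8.93 to -8.32. Among the MPC libraries, the coefficient of variation of Anxa10 was 26.6%, and 91.8% of the 4655 genes with at least 50 CPM in MPC varied less, with a median of 9.63%.

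The other annexins remained abundant in MPC-PTX, at somewhat lower levels for most of them. Anxa5, which binds phosphatidylserine and is used to stain dying cells (chr 3, 36448923 to 36475894), had 677.3, 655.7 and 569.2 CPM in MPC and 342.7, 330.6 and 328.2 CPM in MPC-PTX. The lines did not overlap, and the log2 fold change was -0.93 (SE 0.08). Anxa1, a mediator that ends inflammation by binding formyl peptide receptors (chr 19, 20373428 to 20390944), had 1162, 1168 and 1227 CPM against 719.3, 725.4 and 740.1 CPM. Its log2 fold change was -0.70 (SE 0.06), with little spread within either line. Anxa4, an annexin of epithelial cells (chr 6, 86736840 to 86793584), had 486, 544.8 and 502.5 CPM against 333.9, 324.3 and 321.4 CPM. The difference on the log2 scale was -0.65 (SE 0.06), again without overlap. Anxa11, whose long tail binds S100a6 and Pdcd6 (chr 14, 25842156 to 25886804), had 114.7, 111.9 and 98.6 CPM against 71.9, 73.0 and 76.6 CPM, with a log2 fold change of -0.55 (SE 0.08).

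The next 4 annexins differed less, although the lines did not overlap in any of them. Anxa7, or synexin, a binding partner of sorcin (chr 14, 20455260 to 20480133), had 208, 220.6 and 195.1 CPM in MPC and 161.3, 157.3 and 153 CPM in MPC-PTX, a log2 fold change of -0.40 (SE 0.07). Anxa2, which joins S100a10 in a complex at the plasma membrane (chr 9, 69453620 to 69491795), had 1088, 996 and 853.3 CPM against 764, 747.8 and 745.6 CPM, a log2 fold change of -0.38 (SE 0.09). MPC replicate 3 was the lowest of its line for both genes. Anxa6, whose core is longer than that of the other members (chr 11, 54979108 to 55033445), had 629.7, 619.6 and 548.8 CPM against 469.1, 477 and 478.1 CPM, a log2 fold change of -0.34 (SE 0.07). Anxa3 (chr 5, 96793339 to 96845966) had 1200, 1182 and 1241 CPM against 1036, 1015 and 1062 CPM, a log2 fold change of -0.22 (SE 0.06). Its 2 sets of libraries were separate but close.

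Anxa8, an annexin of stratified epithelia (chr 14, 34085981 to 34100571), had 547.3, 571.4 and 498.5 CPM in MPC and 513.7, 517 and 512.7 CPM in MPC-PTX. The lines overlapped, and the log2 fold change of -0.07 was no larger than its SE of 0.07. Anxa9, with 12.96, 14.44 and 12.88 CPM in MPC, had 12.73, 12.62 and 12.83 CPM in MPC-PTX (log2 fold change -0.08, SE 0.09). Anxa13 gave only 30, 28 and 15 counts in MPC and 18, 22 and 9 in MPC-PTX, and its log2 fold change of -0.67 had an SE of 0.38. It passed the test only without MPC replicate 3, at -1.01.

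By edgeR's quasi-likelihood test with an adjusted p below 0.05, 9 of the 10 annexins were lower in MPC-PTX, and 0 were higher. Over all 11795 tested genes, 15.6% were lower and 14.1% higher. Only Anxa10 also had a log2 fold change below -1 (Anxa5 reached -1.05 without MPC replicate 3), as 4.2% of all tested genes did, and 3.54% of all tested genes were higher with a log2 fold change above 1. The libraries of the lines did not overlap in 9 of the 10 annexins, all with MPC-PTX below MPC. Over all tested genes, 22.7% had MPC-PTX below and 24.2% MPC-PTX above without overlap. The median log2 fold change of the 10 annexins was -0.48, beside 0.04 over all tested genes. As the set was chosen on the same contrast, nothing is read from these counts. The calls of the annexins with small differences depended on single libraries. Leaving out MPC replicate 2 or any 1 MPC-PTX replicate left 6 annexins called lower (without Anxa2, Anxa3, Anxa6 and Anxa8), whereas all 10 were called lower without MPC replicate 3. The sign was negative for all annexins tested under each alternative scaling, filter and left-out library.

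**Figure D1:**
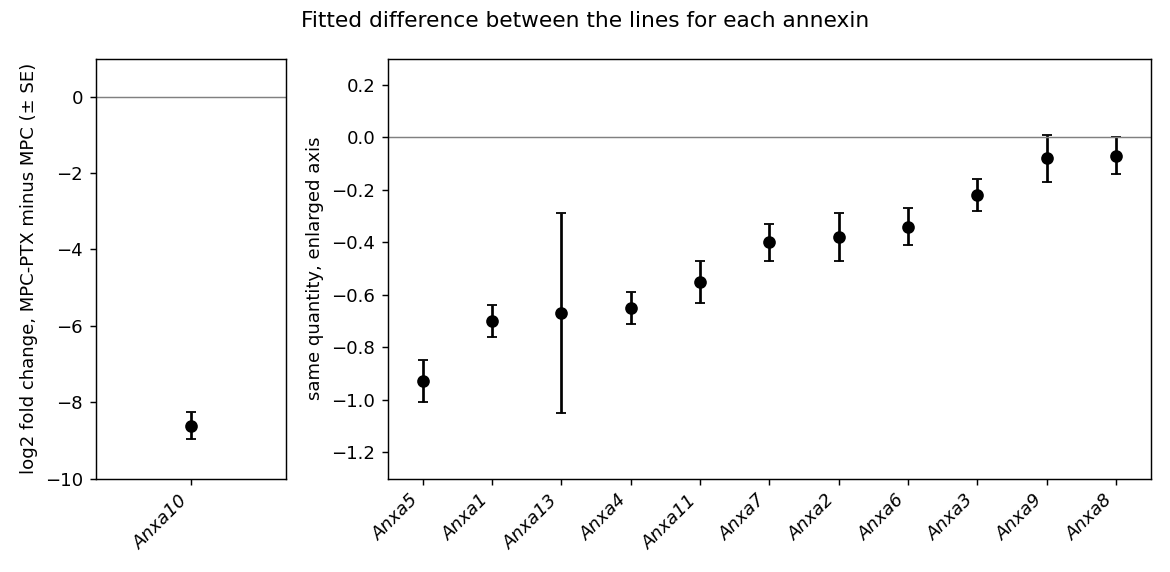
Fitted log2 fold change (MPC-PTX minus MPC, n = 3 libraries per line) of Anxa10 in the left panel and of the other 11 annexins on an enlarged axis in the right panel, with bars of ± 1 SE. Anxa10 stands at -8.62, and the others lie between -0.93 (Anxa5) and -0.07 (Anxa8).

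MPC replicate 3 stood apart from the other MPC libraries in a way that differed between annexins. Its CPM was 0.819 times the mean of the other two MPC libraries for Anxa2, 0.854 for Anxa5, 0.87 for Anxa11 and 0.879 for Anxa6. It was 1.04 times that mean for Anxa3, 1.05 for Anxa1 and 1.23 for Anxa10. The ratio was 0.891 for Anxa8, 0.91 for Anxa7, 0.94 for Anxa9 and 0.975 for Anxa4, and 0.474 for Anxa13 with its few counts. Without this library, the log2 fold change of Anxa2 was -0.52, that of Anxa5 -1.05, that of Anxa6 -0.45 and that of Anxa8 -0.17.

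Together, the 12 annexin genes made up a smaller part of the RNA of the resistant line. Their summed level was 6115 ± 192 CPM (SD, n = 3) in MPC and 4413 ± 26.7 CPM (SD, n = 3) in MPC-PTX. This corresponded to 0.603% ± 0.0196 and 0.447% ± 0.00306 of all counts, respectively. Within the family, Anxa10 accounted for 2.11% ± 0.584 of annexin counts in MPC and 0.00727% ± 0.00284 in MPC-PTX. The mean of Anxa10 itself was 129 CPM in MPC and 0.321 CPM in MPC-PTX. The share of Anxa3 was 19.8% ± 1.14 in MPC and 23.5% ± 0.416 in MPC-PTX, and that of Anxa8 8.81% ± 0.35 and 11.7% ± 0.115. The share of Anxa1 was 19.4% ± 1.21 and 16.5% ± 0.208.

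Levels were compared between genes only after division by length, as CPM per kb of annotated exons. In MPC, Anxa1 had the highest level at 407 ± 12.3 CPM per kb (SD, n = 3). Anxa5 followed with 357 ± 32.2, whose libraries overlapped those of Anxa3 (331 ± 8.31). Anxa8 had 287 ± 19.8 and overlapped Anxa2 (262 ± 31.7). Below these came Anxa6 with 205 ± 15.0, Anxa4 with 110 ± 6.54, Anxa10 with 56.2 ± 14.9, Anxa7 with 34.7 ± 2.13 and Anxa11 with 26.2 ± 2.08 CPM per kb. Per kb of exons, Anxa10 thus had rank 8 of the 12 annexins in the parental line, above Anxa7 and Anxa11 in every library.

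In MPC-PTX, Anxa3 (285 ± 6.37 CPM per kb) and Anxa8 (274 ± 1.2) led, before Anxa1 (250 ± 3.68), Anxa2 (202 ± 2.69), Anxa5 (188 ± 4.37) and Anxa6 (162 ± 1.67). No neighbours in this order overlapped in MPC-PTX. Anxa10 was last of the 12 annexins, at 0.140 ± 0.0555 CPM per kb, below Anxa13 with 0.568 ± 0.17. Dividing by the longest transcript instead of all exons put Anxa3 in front of Anxa1 in MPC as well. It also changed other places among the 5 highest genes. By their means, Anxa6 and the genes below it kept their places in both lines. Anxa10 and Anxa7 were then close in MPC, with means of 73.1 and 71.6 CPM per kb, so that the order of these genes in every library holds only per kb of exons.

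**Figure D2:**
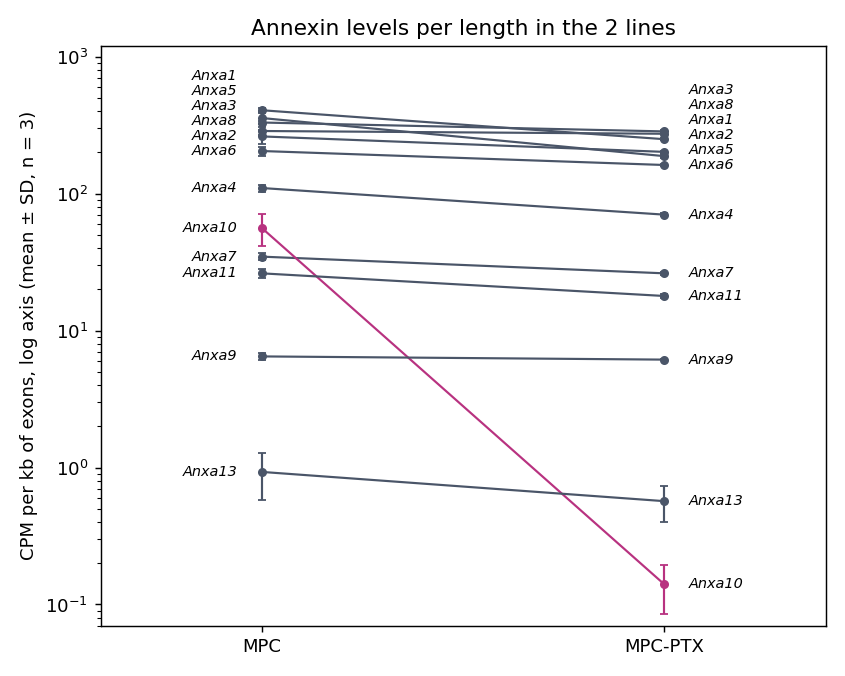
CPM per kb of exons (log axis, mean ± SD, n = 3 libraries) of the 12 annexins in MPC and MPC-PTX, with a line joining the means of each gene and Anxa10 in magenta. Anxa10 moves from 56.2 to 0.140 CPM per kb and to the last place, and the other lines run nearly level or slope down gently.

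Several annexins act together with binding partners, and 17 of 19 listed partner genes were found in the table. Of these, 11 were tested, 4 fell in MPC-PTX, 1 rose and 6 did not pass the test, with a median log2 fold change of -0.25. Among all tested genes, 15.6% fell and 14.1% rose. The partner list was set with earlier results of these data known, so that nothing is read from these counts. Without MPC replicate 3, 3 partners rose and 6 fell. The 3 S100 genes among the tested partners, whose products bind annexin tails, were lower in MPC-PTX. S100a11, which binds Anxa1, had 3706, 3493 and 2915 CPM in MPC and 2077, 2036 and 1946 CPM in MPC-PTX (log2 fold change -0.74, SE 0.10, edgeR adjusted p = 0.00171). S100a6, which binds Anxa11, had 1688, 1681 and 1416 CPM against 1100, 1078 and 1028 CPM (-0.58, SE 0.09, edgeR adjusted p = 0.00265). The MPC-PTX libraries were below all MPC libraries for both genes, and MPC replicate 3 was the lowest of its line. S100a10, the partner of Anxa2, had 783, 656.8 and 548.7 CPM against 465.5, 456.3 and 457.9 CPM (-0.53, SE 0.12, edgeR adjusted p = 0.016). This call was lost, with edgeR adjusted p-values of 0.0596 to 0.0675, without MPC replicate 2 or any 1 MPC-PTX replicate.

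Pdcd6, or ALG-2, a calcium sensor that binds Anxa7 and Anxa11, had 113.8, 119.1 and 116 CPM in MPC and 93.55, 83.95 and 91.55 CPM in MPC-PTX (log2 fold change -0.38, SE 0.07, edgeR adjusted p = 0.00617). Sri, which encodes sorcin, a calcium-binding partner of Anxa7, changed in the other direction. Its level was 551.5, 492.3 and 466.6 CPM in MPC and 991.9, 985 and 1004 CPM in MPC-PTX (log2 fold change 0.98, SE 0.08, edgeR adjusted p = 0.000156). Sri lies on chromosome 5 (8046078 to 8069379), 590.7 kb before Abcb1a, and was the partner gene that rose in MPC-PTX. Anxa7 itself had a log2 fold change of -0.40.

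The partners that did not pass the test were Ahnak, a large scaffold of the Anxa2 complex (log2 fold change 0.16, edgeR adjusted p = 0.494), Plat, the tissue plasminogen activator (-0.06, adjusted p = 0.626), the plasminogen receptor gene Plgrkt (-0.25, adjusted p = 0.0881), the phospholipase gene Pla2g4a (-0.29, adjusted p = 0.113), Prkca (0.02, adjusted p = 0.932) and Rasa1 (0.21, adjusted p = 0.701). A p-value above the threshold does not show that their levels were alike. The receptors of Anxa1 were not detectable at this depth. Fpr2 and Fpr3, and the plasminogen gene Plg, had 0 counts in all 6 libraries, and Fpr1, S100a4 and Dysf had at most 3 counts in any library. A count of 0 allows up to 3 counts, for counting error only.

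**Figure D3:**
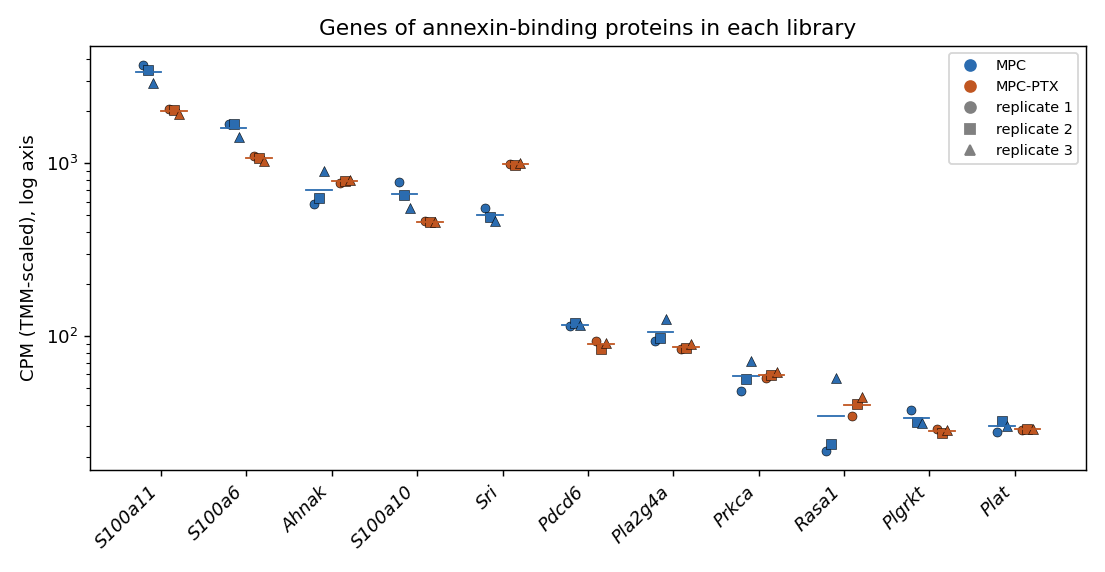
CPM (log axis) of the 11 tested partner genes in each library, in blue for MPC and orange for MPC-PTX, with a horizontal bar at the mean. S100a11, S100a6, S100a10 and Pdcd6 are lower in all MPC-PTX libraries, and Sri is higher, at 985 to 1004 CPM against 466.6 to 551.5 CPM.

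Ratios between an annexin and its partner, each per kb, were computed within libraries. S100a10 stood at 2.22, 2.03 and 1.98 times the level of Anxa2 in MPC and at 1.88, 1.88 and 1.89 times in MPC-PTX, lower in every MPC-PTX library than in any MPC library. S100a6 stood at 44.5, 45.4 and 43.4 times the level of Anxa11 in MPC and at 46.2, 44.7 and 40.6 times in MPC-PTX, so that this ratio overlapped between the lines. For S100a11 and Anxa1, the ratio was 18.2, 17 and 13.5 in MPC and 16.4, 16.0 and 15.0 in MPC-PTX, again with overlap. RNA ratios say nothing about how much protein is bound.

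Of 23 genes of plasma membrane repair, a process in which annexins take part, 21 were tested. A total of 3 rose, 4 fell and 14 did not pass the test, with a median log2 fold change of -0.07. Over all tested genes, 14.1% rose and 15.6% fell, so that the counts were near the background and are no result about this group. Without MPC replicate 3, 7 rose and 10 fell. Cav1, the main protein of caveolae, rose from 71.4 ± 2.1 to 160.5 ± 3.72 CPM (SD, n = 3, log2 fold change 1.17, SE 0.06, edgeR adjusted p = 2.97e-05). Syt7, a calcium sensor of lysosome exocytosis, rose from 5.14 ± 0.336 to 13.1 ± 1.28 CPM (1.35, SE 0.12, edgeR adjusted p = 0.000311). Myof, a ferlin of the plasma membrane, fell from 888 ± 87.9 to 635 ± 1.36 CPM (-0.48, SE 0.08, edgeR adjusted p = 0.00442). Vps4a, an ATPase of the ESCRT machinery, had a log2 fold change of 0.47 (edgeR adjusted p = 0.0141), and this call was lost without any 1 MPC-PTX replicate (0.0563 to 0.062). Pdcd6, described above, also belongs to this group.

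Anxa10 was set beside other genes of the gastric epithelium, of which 23 of 24 were found in the table and 10 were tested. All 10 passed the test, 7 of them lower and 3 higher in MPC-PTX, with a median log2 fold change of -0.73. Without MPC-PTX replicate 1, only 1 was called higher and 5 were called lower. The shares over all tested genes were 15.6% lower and 14.1% higher. As the list was set with earlier results of these data known, nothing is read from these counts. Ctse, a gastric aspartic protease, had 233.1, 309.8 and 281.1 CPM in MPC and 1.28, 1.31 and 1.90 CPM in MPC-PTX (log2 fold change -7.54, SE 0.19, edgeR adjusted p = 8.07e-06). Psca, a surface protein of the gastric mucosa, fell from 173.9 ± 15.4 to 44.1 ± 0.708 CPM (SD, n = 3, -1.98, SE 0.08, edgeR adjusted p = 1.47e-05). Cldn18, a tight junction protein of stomach and lung, fell much less, from 274.2 ± 19.4 to 199.5 ± 2.92 CPM (-0.46, SE 0.07, edgeR adjusted p = 0.00262). Sox2, a transcription factor of the stomach and other foregut tissue, rose from 51.8 ± 5.2 to 70.7 ± 1.93 CPM (0.45, SE 0.09, edgeR adjusted p = 0.00897), a call lost without MPC-PTX replicate 1 (0.0505). Aqp5, a water channel of gastric glands, had 13.3, 9.23 and 5.57 CPM against 18.6, 20.7 and 20.7 CPM (1.10, SE 0.28, edgeR adjusted p = 0.0267), a call lost without MPC replicate 2 or any 1 MPC-PTX replicate (0.069 to 0.0862).

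Several secreted products of mature gastric cells were absent or nearly so in both lines. Tff1, Tff2, Gkn2, Pgc and Pga5 had 0 counts in all 6 libraries, and Muc5ac and Muc6 had at most 2 counts in any library. The secreted gastrokine gene Gkn3 was low but present, with 50, 68 and 52 counts in MPC and 6, 11 and 4 in MPC-PTX (log2 fold change -3.08, SE 0.32, edgeR adjusted p = 0.000594). It is named after its values were seen.

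The genes whose pattern over the 6 libraries was most like that of Anxa10 were sought among the 10059 genes that reached 5 CPM in at least 1 of the lines on average. Likeness was the root mean square difference of log2 CPM after centring each gene, with a median of 4.18 over all tested genes. Rec8, a meiotic cohesin subunit, came first with 0.51, and had 330, 407 and 387 counts in MPC and 1, 0 and 0 counts in MPC-PTX. Ctse followed with 0.52. Vil1, the villin of microvilli, had 0.89, with 668, 1038 and 930 counts in MPC and 11, 7 and 6 in MPC-PTX. Gramd1b, a sterol transfer protein, had 0.99 and Spon2, a secreted matrix protein, had 1.17. These 5 genes lie on chromosomes 14, 1, 1, 9 and 5, none on that of Anxa10. The measure is dominated by the difference between the lines, so that it finds genes that were lost alike.

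The position of Anxa10 on chromosome 8 was compared with its neighbours. Palld, an actin-binding protein 154.4 kb before Anxa10, had 241.2, 218.1 and 229.5 CPM in MPC and 284, 283.8 and 282 CPM in MPC-PTX (log2 fold change 0.30, SE 0.06, edgeR adjusted p = 0.0084), a call lost without MPC-PTX replicate 2 (0.0505). Ddx60, an antiviral helicase 18.8 kb before it, was near the detection limit with 17, 10 and 69 counts in MPC and 24, 19 and 15 in MPC-PTX (-0.78, SE 0.66, edgeR adjusted p = 0.416), and its sign turned without MPC replicate 3 (0.34). On the other side, the nearest tested genes were Cpe, a carboxypeptidase of secretory granules at 2469.4 kb (0.86, SE 0.06, edgeR adjusted p = 9.57e-05), and Msmo1, an enzyme of sterol synthesis at 2595 kb (0.37, SE 0.06, edgeR adjusted p = 0.00442). Spock3, Sgo2b and Tll1, which lie between Anxa10 and Cpe, had at most 1 count in any library. Palld, Cpe and Msmo1 were called higher in MPC-PTX, while Ddx60, the nearest tested gene, did not pass the test. The cause of the loss of Anxa10 was not tested.

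Within 1 Mb of Anxa10, 5 other genes were tested, 3 of which rose and 0 fell, with a median log2 fold change of 0.30. Within 5 Mb, the 21 tested genes had a median of 0.44, and 16 rose and 1 fell, beside 14.1% and 15.6% of all tested genes. The gene that fell was Smim31, with a log2 fold change of -4.68, which is named here after its value was seen. The 663 tested genes of chromosome 8 had a median of 0.26, against 0.04 over all tested genes. The other 9 listed annexins are spread over chromosomes 3, 5, 6, 9, 11, 14 and 19. The 14 tested genes within 1 Mb of Anxa5 had a median log2 fold change of 0.07 with 1 higher and 0 lower. Near Anxa1, 2 of the 3 were lower, with a median of -1.06. Around the remaining listed annexins, the medians within 1 Mb ranged from -0.25 (Anxa2) to 0.37 (Anxa3).

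**Figure D4:**
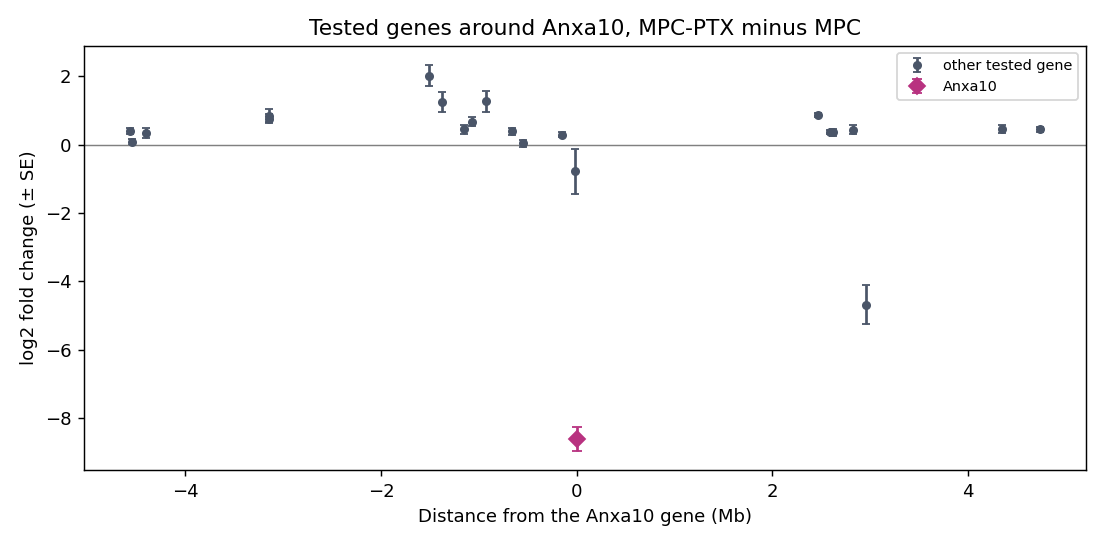
Log2 fold change (MPC-PTX minus MPC, ± SE) of the tested genes within 5 Mb of Anxa10, by distance from the Anxa10 gene in Mb. Anxa10 (magenta) stands at -8.62 and Smim31 at -4.68. Of the 21 other genes, 16 passed the test as higher in MPC-PTX, with values up to 2.02, beside 14.1% of all tested genes.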

How the data were processed

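RNA was measured by RNA-seq in 3 MPC and 3 MPC-PTX libraries. Per the labels and the study's methods, the authors selected mRNA with poly-T beads, cleaned the reads with fastp 0.22.0, aligned them by HISAT2 and deposited raw read counts per gene, neither normalised nor pooled. The counting tool, genome build, annotation and use of strand are not given in the sources used here, so that counts of genes with overlapping exons (Anxa2, Anxa3, Anxa4, Anxa9 and Anxa11) may hold reads of a neighbour. Positions and exon lengths were taken from GENCODE M21 (GRCm38) by Ensembl ID.

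From the deposited counts, genes were filtered by line with filterByExpr (minimum count 10), which kept 11795 of 21959 genes, including all 10 annexins. Libraries were scaled by TMM and fitted with edgeR 4.0.16 (glmQLFit, robust, and glmQLFTest) in R 4.3.3 without covariates. P-values were adjusted by Benjamini-Hochberg over all tested genes, with a threshold of 0.05. CPM were computed with TMM-scaled library sizes. The fit was tested on simulated data. DESeq2 1.42.0, other scalings and filters, a replicate block and the removal of each library were run as alternatives. The main fit treated all libraries as a single batch. Depth was 16574580 to 23148182 counts per library, and intervals cover counting error only, as PCR copies were not told apart.

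The members and gene lists were chosen with earlier results of these data known. Besides the annexins, the text names the partner genes, of each other list the up to 5 genes that passed the test with the largest changes and reached 5 CPM on average in a line, the 5 genes most like Anxa10 (log2 CPM with a prior count of 2), and its 2 nearest tested neighbours on each side.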

Additional observations from a re-analysis of the deposited data

How the results depend on the processing

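Of the genes whose fold change was followed through the alternatives, Ddx60 and Cdh1 reversed, neither past the threshold in any fit. Ahnak, Plat, Plgrkt, Pla2g4a, Prkca, Rasa1, Gkn3, Krt6a, Trp63, Krt15 and Smim31 were not followed, so that a reversal in them was not looked for. The log2 fold change of Ddx60 was -0.78 with all libraries and ranged from -1.2 to 0.34 when 1 library was left out, with 0.34 without MPC replicate 3, and that of Cdh1 was -0.01 and, with library size alone, 0.02. Requiring a log2 fold change beyond 1 left 1 annexin lower, 0 partners higher and 0 lower, 0 membrane repair genes lower and 4 gastric genes lower. Requiring 10 counts in every sample removed Anxa10 and left 1 basal or squamous gene higher and 4 lower. Leaving out 1 library at a time gave 6 to 10 annexins lower, 1 to 3 partners higher and 3 to 6 lower, 2 to 7 membrane repair genes higher and 3 to 10 lower, 1 to 3 gastric genes higher and 5 to 7 lower, 4 intestinal genes lower, and 3 to 4 basal or squamous genes higher and 5 to 8 lower. The partners higher (3) and the membrane repair genes higher (7) and lower (10) were most numerous without MPC replicate 3, and the gastric genes higher were fewest (1) without MPC-PTX replicate 1. Over all genes, 1668 were higher and 1841 lower, against 3020 and 3227 without MPC replicate 3, 934 and 1222 without MPC replicate 2, and 803 to 840 and 1077 to 1122 without any 1 MPC-PTX replicate. The cause was not tested.

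Deviations from the line means correlated between same-numbered libraries with r of 0.151, -0.023 and 0.173, so that the numbers were not taken to pair the libraries. With a replicate block, 8 annexins were lower (without Anxa3 and Anxa8), and 1787 genes were higher and 1717 lower over all genes. Scaling by library size alone also left 8 annexins lower. Depth limits what can be said of Anxa10 in MPC-PTX, which rests on 20 counts.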

Other observations

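Genes of the intestinal epithelium and of basal and squamous epithelium were listed beside the gastric genes. Both lists were set with earlier results of these data known, and nothing is read from their counts. Of 16 intestinal genes, 5 were tested and 4 fell in MPC-PTX, beside 15.6% of all tested genes. Vil1, the villin of microvilli, fell from 44.6 ± 9.01 to 0.381 ± 0.0799 CPM (SD, n = 3, log2 fold change -6.84, edgeR adjusted p = 8.81e-06). Lgals4, a galectin of the gut, had a log2 fold change of -2.61 (edgeR adjusted p = 0.000242), Cdh17, a cadherin of the gut, of -2.44 (adjusted p = 0.0012) and Cdx2, a transcription factor of the intestine, of -1.06 (adjusted p = 0.00155).

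Of 18 basal and squamous genes, 12 were tested, of which 3 rose and 7 fell, beside 14.1% and 15.6% of all tested genes. Krt14, a keratin of basal cells, had 15, 4 and 9 counts in MPC and 690, 641 and 523 counts in MPC-PTX (log2 fold change 5.95, edgeR adjusted p = 2.22e-05). The keratin gene Krt6a also rose, from a mean of 0.849 to 2.71 CPM (log2 fold change 1.67, edgeR adjusted p = 0.00451). The transcription factor gene Trp63 rose from 0.626 to 2.19 CPM (1.81, edgeR adjusted p = 0.00358). The basal keratin gene Krt15 fell from 4.28 to 0.361 CPM (-3.58, edgeR adjusted p = 0.00115), so that basal genes did not all change one way. These 3 are named after their values were seen, and their means stayed below 5 CPM in both lines. Sprr1a, of the cornified envelope, had 221, 477 and 416.1 CPM in MPC and 32.5, 32.3 and 30.9 CPM in MPC-PTX (-3.54, edgeR adjusted p = 0.000275), with MPC replicate 1 the lowest of its line, as for Anxa10. Ivl, the involucrin gene, had a log2 fold change of -5.21 (edgeR adjusted p = 2e-04), Krt4 of -1.99 (adjusted p = 0.000341) and Sfn of -1.11 (adjusted p = 0.000258).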
